A study of Anolis carolinensis with 2 samples.

Results

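Spliced gene models of very short annotated length, read here as coding sequence, were described in embryonic RNA of a lizard, the green anole (Anolis carolinensis). A model was a member when it was the single gene and the single transcript of its locus, spanned more genome than its transcript length, and was not on a linkage group of the assembly (a sequence named LG). Its transcript length had to lie between 90 and 300 bases and be divisible by 3. This rule found 512 of the 21085 listed genes, or of the 18100 genes that stood alone at a locus with 1 transcript. No expression value entered the rule. One whole embryo with 38 somite pairs was compared with one whole embryo with 28, and each gave 1 library. Somites, the repeated mesoderm blocks along the trunk, are counted to stage an embryo. Both embryos were collected within 0 to 1 days of egg laying, and mouse embryos of 10.5 and 9.5 days post coitum are named as the equivalent stages. The labels name no strain, sex or treatment. With 1 library per stage, embryo, library and stage cannot be told apart, and no p-value can be given.

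In vertebrates, very small proteins include the smallest proteins of the ribosome, accessory subunits of the mitochondrial respiratory chain, actin-binding thymosins, metal-binding metallothioneins and short membrane peptides that regulate pumps and channels. Many of these serve every cell, and others belong to one tissue, such as muscle. Short coding sequences are also hard to annotate, because a short open reading frame arises easily by chance. The files pair no identifier with a name, and the name table used here held 0 of the 512 identifiers. Members are therefore given by position on AnoCar2.0 (1-based), without names or roles. Whether a model makes a protein was not measured, so "small spliced model" is used below, and tissue markers could not be checked. Of 518 spliced models of 90 to 300 bases off the linkage groups, 6 had a length that was not divisible by 3.

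The libraries held about 12910000 mapped fragments at 38 somite pairs and 13860000 at 28. A fragment is 1 sequenced piece of cDNA. The deposited unit, FPKM, divides a model's fragments by its effective length and by the library's mapped fragments. Effective length is the deposited estimate of the length in which a fragment can start, and it was used to turn each FPKM back into fragments. Values above 0 with fewer than 10 fragments were rare, at 121 of 9871 genes at 38 and 123 of 9739 at 28, so a listed 0 can hide up to 9 fragments. Intervals of fragment sums, fragment shares and fragment ratios given below cover counting error only. Wilson intervals of shares of models treat the models as independent draws. They cover neither counting error nor differences between embryos.

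The members also held less intron sequence than longer models. Their transcript lengths, called coding lengths here, had a median of 237 bases, with quartiles at 198 and 270. Read as coding sequence alone, that median corresponds to 79 codons, with a range of 31 to 100. Whether the lengths hold coding sequence alone was not tested. The genome between the start and end of a model that lay outside its transcript, called intron sequence here, had a median of 1926 bases, with quartiles at 706.2 and 4349. It ran from 5 to 227178 bases, and models are called spliced by this span alone. In the next size class, 2177 spliced models of 303 to 600 bases, the median was 4205 bases. Members lay on 257 different sequences of the assembly. Of them, 212 were on the numbered chromosomes, 245 on scaffolds named GL and 55 on contigs named AAWZ. The shares were 41.4%, 47.9% and 10.7%, against 43.3%, 44.2% and 12.5% of the models of 303 to 600 bases. Under 50 kb apart were 22 pairs of neighbouring members, and in 2 of these pairs both models had fragments. No such count was taken over other models, so these counts are no result about small models.

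A minority of the small spliced models had listed expression, and mostly at both stages. Listed above 0 were 170 of the 512 members at 38 somite pairs (33.2%, Wilson 95% interval 29.3 to 37.4) and 177 at 28 (34.6%, 30.6 to 38.8). Among all 18100 genes that stood alone, 54.5% were listed above 0 at 38 and 53.8% at 28. In both libraries 151 members were above 0, 19 were above 0 only at 38 and 26 only at 28, and 316 were at 0 in both. Of the 196 members above 0 in either library, those listed at 38 alone made up 9.69% and those at 28 alone 13.3%. The same shares over 10687 genes were 8.87% and 7.64%. The members listed at a single stage held few fragments, with a median of 15 and a range of 10 to 56 for those at 38, and a median of 15 and a range of 5.49 to 50 for those at 28.

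The shortest members were listed least often. Of 39 members of 90 to 150 bases, 5 were above 0 at 38 somite pairs and 5 at 28 (12.8% each, 5.6 to 26.7). Of 94 members of 151 to 200 bases, 19 were above 0 at 38 (20.2%, 13.3 to 29.4) and 18 at 28 (19.1%, 12.5 to 28.2). For 169 members of 201 to 250 bases the numbers were 65 and 65 (38.5%, 31.5 to 46.0). For 210 members of 251 to 300 bases they were 81 at 38 (38.6%, 32.2 to 45.3) and 89 at 28 (42.4%, 35.9 to 49.1). The shares grew with length on both sides of the upper limit, reaching 46.1% at 38 and 47.0% at 28 for models of 303 to 600 bases, and 77.0% and 75.5% for models over 1200 bases. At the limit itself, of 9 members of exactly 300 bases, 4 were above 0 at 38 and 4 at 28, and of 21 models of 303 bases, just outside it, 9 were above 0 at 38 and 8 at 28. At the lower limit, the shortest members were 3 models of 93 bases, all at 0 in both libraries. A read of 104 bases, the length discussed below with read bases per fragment, could not lie whole within them. Their zeros would then be fixed by length, but no source used here states the read length. A listing of 10 fragments asks for more RNA per base from a short model than from a long one. The parts of depth and of read length in this trend were not tested.

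Listing also went with the amount of intron sequence. None of 15 members with under 70 bases of intron sequence was above 0 in either library, which allows a share of up to 20%. Whether gaps this short are introns was not tested. Of 87 members with 70 to 499 bases, 16 were above 0 at 38 (18.4%, 11.6 to 27.8) and 18 at 28 (20.7%, 13.5 to 30.4). Of 112 members with 5000 bases or more, 48 were above 0 at 38 (42.9%, 34.1 to 52.1) and 51 at 28 (45.5%, 36.6 to 54.8). The classes between lay in order, as the plot of listed shares shows. Models of 303 to 600 bases followed a like order from 70 bases of intron sequence upward, from 21.4% to 55.9% at 38 and from 18.5% to 57.9% at 28. In the first class they were listed too, where 15 of 52 models with under 70 bases were above 0 at 38 and 17 of 52 at 28. By place, 83 of 212 members on the numbered chromosomes were above 0 at 38 and 86 at 28, against 73 and 74 of 245 on GL scaffolds, and 14 and 17 of 55 on AAWZ contigs.

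**Figure D1:**
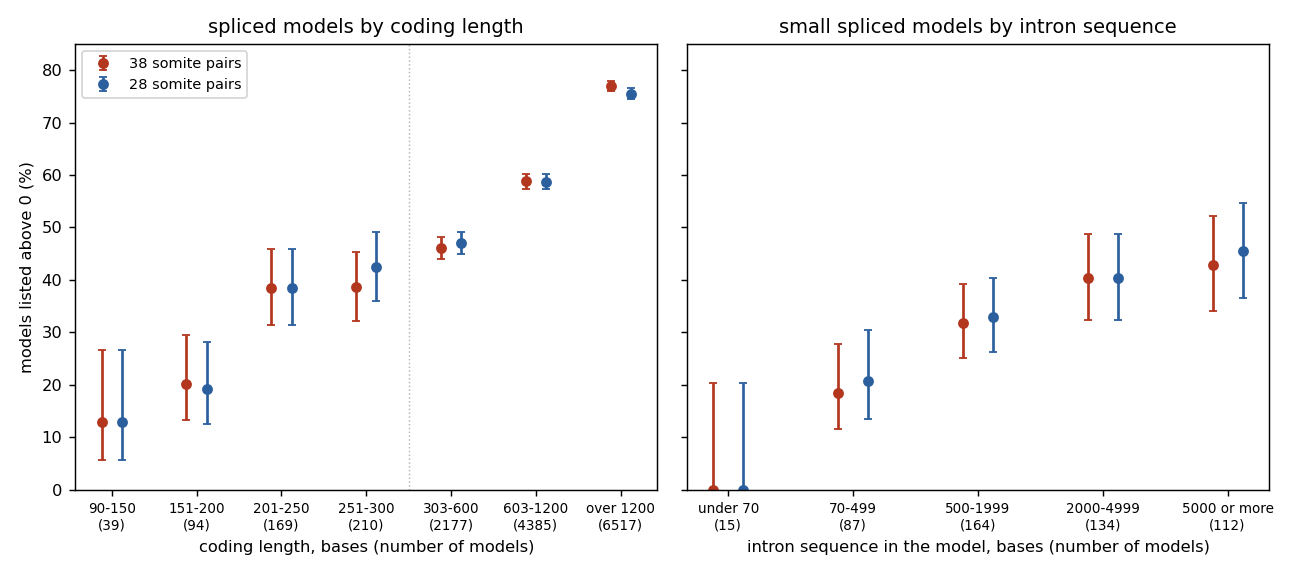
Share of spliced models listed above 0 (vertical axis, percent) by coding length in bases (left) and, for the small spliced models, by intron sequence in bases (right), at 38 somite pairs (red) and 28 (blue). Bars are Wilson 95% intervals, the number of models is in parentheses, and the dotted line separates the members (left of it) from longer models. Shares grow from 12.8% for 90 to 150 bases to 77.0% at 38 and 75.5% at 28 for over 1200 bases, and are 0 for the 15 members with under 70 bases of intron sequence.

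A listed 0 was of 2 kinds. In some models with 0 FPKM the effective length had been adjusted away from the annotated length, and in the others it was equal to it. No member above 0 had an unadjusted effective length in either library. At 38 somite pairs, 342 members were at 0 and 112 of these were adjusted (32.7%). At 28, 335 were at 0 and 107 were adjusted (31.9%). Over all genes that stood alone, the adjusted shares of zeros were 45.6% at 38 and 39.1% at 28. Of the 19 members listed only at 38, 17 had an adjusted effective length at 28, and of the 26 listed only at 28, 21 had one at 38. In 188 of the 316 members at 0 in both libraries, the effective length was the annotated one in both. For genes listed at a single stage, or at 0 in both libraries, no such share was taken over all genes. The shares of all zeros above are no background for these counts. What the adjustment records is not stated in the files, so it gives no fragment number.

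Small spliced models held few fragments in all. Their fragments summed to 43833 at 38 somite pairs (exact Poisson interval 43423 to 44245) and to 46039 at 28 (45620 to 46462). This was 0.340% of mapped fragments at 38 (Wilson 0.336 to 0.343) and 0.332% at 28 (0.329 to 0.335). Of the fragments within genes that stood alone, it was 0.921% at 38 and 0.753% at 28, while members are 512 of those 18100 genes. Those genes held 4760589.5 fragments at 38 and 6112407.1 at 28, of 12910000 and 13860000 mapped. The size of the difference between libraries in the members' share therefore rests on the total used. The median member above 0 had 45.5 fragments at 38 and 49 at 28, against 94 and 117 for all genes that stood alone. The levels per length were the reverse. Median FPKM of the members above 0 was 24.7 at 38 and 23.9 at 28, against 6.47 and 7.62 for all such genes. These medians leave out the members at 0, and a model listed from 10 fragments has a higher lowest FPKM when it is short.

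A few models carried most of the fragments. The 12 members with the most fragments held 64.5% of all member fragments at 38 somite pairs and 62.8% at 28. At 38, 11 members had at least 1000 fragments, 52 had at least 100 and 47 had 10 to under 20. At 28, the numbers were 11, 57 and 42. Of the listed members, 27.6% at 38 and 24.3% at 28 thus rest on fewer than 20 fragments. The 12 were chosen by these same fragments, and no such shares were taken over all genes. These shares are therefore no result about small models.

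The largest fragment number was that of a model of 282 bases on chromosome 3 (33862883 to 33876067), with 12903 bases of intron sequence. It had 1405 FPKM from 3613 fragments at 38 somite pairs and 1810.5 FPKM from 5026 fragments at 28. The ratio of fragments per mapped fragment, 38 over 28, was 0.772 (95% counting interval 0.739 to 0.806). It was therefore lower in the library at 38. A model of 270 bases on scaffold GL343338.1 (90283 to 91341) led at 38. It had 1618 FPKM from 4048 fragments at 38 and 1191 FPKM from 3177 fragments at 28, a ratio of 1.37 (1.31 to 1.43). A model of 273 bases on GL343202.1 (1761 to 5598) lay in the same direction, with 1202 FPKM from 3551 fragments at 38 and 971.8 FPKM from 3075 fragments at 28, a ratio of 1.24 (1.18 to 1.30). These differences exceed counting error and are well under 2-fold.

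Close to even were 3 others of the 12. A model of 276 bases on GL343674.1 (85361 to 88122) had 1064 FPKM from 2908 fragments at 38 somite pairs and 1163 FPKM from 3413 fragments at 28, a ratio of 0.915 (0.870 to 0.962). The model of 273 bases on chromosome 4 (112161782 to 112167398) had 650.9 FPKM from 2428 fragments at 38 and 650.6 FPKM from 2553 at 28, a ratio of 1.02 (0.966 to 1.08). One of 210 bases on chromosome 6 (23063441 to 23072441) had 648.2 FPKM from 1453 fragments at 38 and 618.7 FPKM from 1495 at 28, a ratio of 1.04 (0.970 to 1.12). The intervals of the last 2 hold 1. After the scaling by 1.17 described below with the comparison of stages, the 3 ratios were 1.07 (1.015 to 1.12), 1.19 (1.13 to 1.26) and 1.22 (1.13 to 1.31), all above 1.

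As deposited, the largest difference among the 12 was on chromosome 4 (118051913 to 118059527), in a model of 276 bases. It had 473.6 FPKM from 1208 fragments at 38 somite pairs and 916.3 FPKM from 2478.5 fragments at 28, a ratio of 0.523 (0.488 to 0.561). The number at 28 is not whole, and the interval, computed from the nearest whole number, does not cover what made it so. Towards 38, the largest was a model of 264 bases on chromosome 5 (30641445 to 30643258), with 912.7 FPKM from 2262 fragments at 38 and 596.7 FPKM from 1582.5 at 28, a ratio of 1.53 (1.44 to 1.64). A pair of the 12 lay on one scaffold, GL343480.1. The model of 282 bases at 448001 to 453696 had 894 fragments at 38 and 630 at 28, a ratio of 1.52 (1.37 to 1.69), and the model of 273 bases at 638060 to 642770 had 1496 at 38 and 1844.5 at 28, a ratio of 0.871 (0.813 to 0.932). With values at 38 multiplied by 1.17, a scaling described below with the comparison of stages, the second ratio was 1.015 (0.947 to 1.09), so its direction rests on the scaling. The ratios of the models on chromosomes 4 and 5 became 0.610 (0.569 to 0.654) and 1.79 (1.68 to 1.91). The largest difference among the 12 then lay on chromosome 5, so that place also rests on the scaling. The model of 300 bases on chromosome 1 (235477978 to 235481507), at the upper limit of length, had 2059 fragments at 38 and 1715.5 at 28, a ratio of 1.29 (1.21 to 1.37). The other 3 models of 300 bases above 0 in both libraries held far fewer. The one on chromosome 3 (22196443 to 22200571) had 73 fragments at 38 and 95 at 28, the one on GL343267.1 (1220951 to 1223362) had 136 at 38 and 120 at 28, and the one on GL343514.1 (204568 to 205088) had 27 at 38 and 12 at 28. Their ratios were 0.825 (0.5996 to 1.13), 1.22 (0.945 to 1.57) and 2.42 (1.18 to 5.23), so the interval lay apart from 1 in the last alone. After scaling it also did so on GL343267.1, at 1.42 (1.10 to 1.83).

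**Figure D2:**
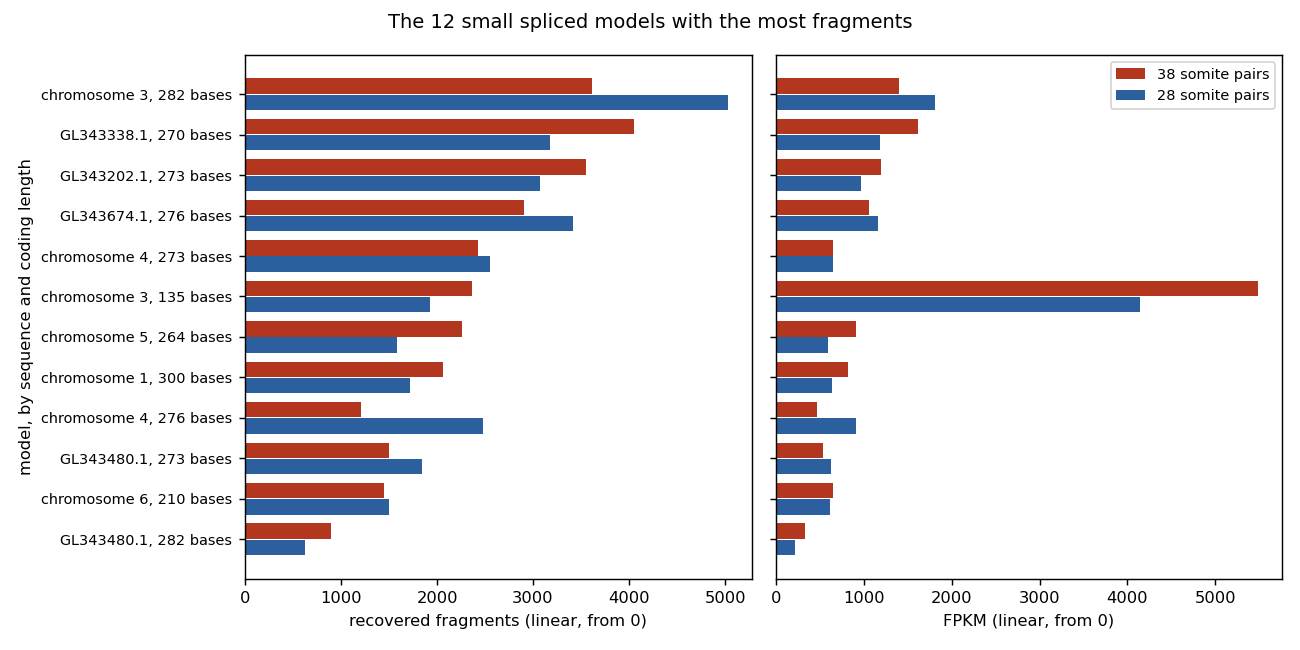
The 12 small spliced models with the most fragments over both libraries, by assembly sequence and coding length, with recovered fragments (left) and FPKM (right) at 38 somite pairs (red) and 28 (blue), 1 library each. The model of 135 bases on chromosome 3 stands sixth by fragments over both libraries but first by FPKM, with 5488 at 38 and 4143 at 28.

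Short effective lengths set how FPKM and fragments relate. The model of 135 bases on chromosome 3 (120076424 to 120076936) had an effective length of 33.4 bases at 38 somite pairs and 33.5 at 28. It had 5488 FPKM from 2364 fragments at 38 and 4143 FPKM from 1926 fragments at 28, a fragment ratio of 1.32 (1.24 to 1.40). Among the 18100 genes that stood alone it ranked 2 by FPKM at 38 and 3 at 28, but 347 and 601 by fragments. By fragments per annotated length, on the same scale as FPKM, it had 1357 at 38 and 1029 at 28, which ranked 8 and 23. Its place among the most abundant genes thus moved with the length used.

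The extreme case was a model of 108 bases on chromosome 2 (12399392 to 12400359), the shortest member above 0 in both libraries. Its effective length was 5 bases in each library. It had 294.4 FPKM from 19 fragments at 38 somite pairs and 173.2 FPKM from 12 fragments at 28. It ranked 157 by FPKM at 38 and 342 at 28, and 8239 and 9123 by fragments. The ratio of 1.70 had a counting interval of 0.784 to 3.84, which holds 1. The deposited bounds of its FPKM were 260.1 to 328.7 at 38 and 146.8 to 199.5 at 28, which do not overlap.

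Over the members above 0, the effective length had a median of 59.2% of the annotated length at 38 somite pairs and 60.04% at 28, against 91.3% and 91.1% over all genes that stood alone. For members of 90 to 150 bases it was 24.7% at 38 and 24.9% at 28, and for those of 251 to 300 bases it was 68.6% and 67.4%. Models of one length also differed. Of 7 members of 273 bases above 0 at 38, the effective length lay between 154.7 and 289 bases, and 2 members had one above the annotated length in each library. An FPKM larger than the number of fragments behind it was found for 11 of 170 members at 38 and 9 of 177 at 28. Which number is larger follows from the effective length and the library's mapped fragments alone. Between libraries, a member's effective length changed little, by a median of 0.68% and at most 3.98% among the 151 members above 0 in both. FPKM ratios between stages are therefore close to fragment ratios, while FPKM levels between members are not close to fragments.

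**Figure D3:**
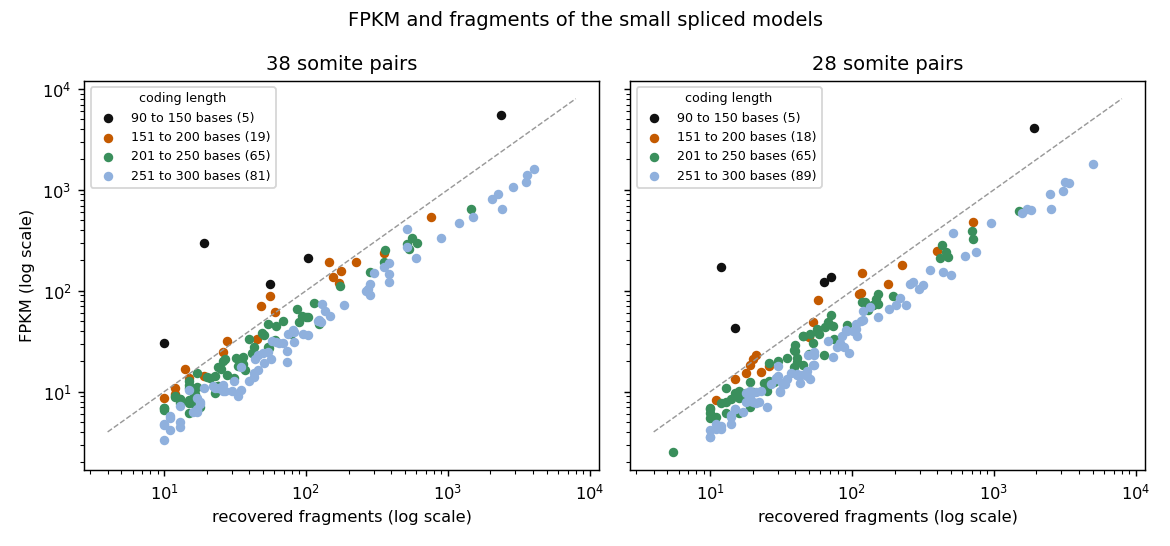
FPKM (vertical, log scale) against recovered fragments (horizontal, log scale) of the small spliced models above 0 at 38 somite pairs (left, 170 models) and 28 (right, 177), coloured by coding length. The dashed line marks equal numbers, and the 5 models of 90 to 150 bases in each panel all lie above it, up to 5488 FPKM at 38 and 4143 at 28. The side of the line follows from effective length and mapped fragments alone.

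Members stood high more often in lists ordered by FPKM than in lists ordered by fragments. They are 512 of the 18100 genes ranked. Among the 100 genes of highest FPKM, 12 were members at 38 somite pairs and 13 at 28. Among the 100 genes with the most fragments, 0 were members in either library. Of the first 500 by fragments, 8 were members at 38 and 6 at 28, against 37 and 32 of the first 500 by FPKM. By fragments per annotated kilobase, 10 of the first 100 were members at 38 and 11 at 28. Of the members in the first 100 by FPKM, 2 at 38 and 2 at 28 were not in the first 100 per annotated kilobase, and the other 10 and 11 were in both. Among the first 20, 4 were members by FPKM in each library, and 4 at 38 and 1 at 28 were members per annotated kilobase.

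The reads behind each fragment differed from those of longer models. The files give a coverage per transcript, and coverage times effective length divided by fragments is the number of read bases per fragment. Among genes above 0 it lay between 101.9 and 208.0 in both libraries, with most small spliced models at the value of 104 bases. That is the number that 1 read of 104 bases per fragment would give, and 208.0 is 2 times that. No source used here states the read length or layout. Of 170 members with at least 10 fragments at 38 somite pairs, 129 (75.9%) had under 104.5 bases per fragment, and of 176 at 28, 133 (75.6%) did. The medians were 104.0 in both libraries, with a highest value of 120.0 at 38 and 128.8 at 28. In models of 303 to 600 bases the median was 115.6 at 38 and 118.0 at 28, and in models over 1200 bases it was 144.0 and 146.5. Under 104.5 were 20.1% and 19.1% of the models of 303 to 600 bases, and 4.6% and 3.3% of those over 1200. Of the 12 members with the most fragments, the highest value was 112.3 at 38 and 113.3 at 28, both in the model of 300 bases on chromosome 1. All 5 members shorter than 104 bases were at 0 in both libraries, and a read of 104 bases could not lie whole within them.

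**Figure D4:**
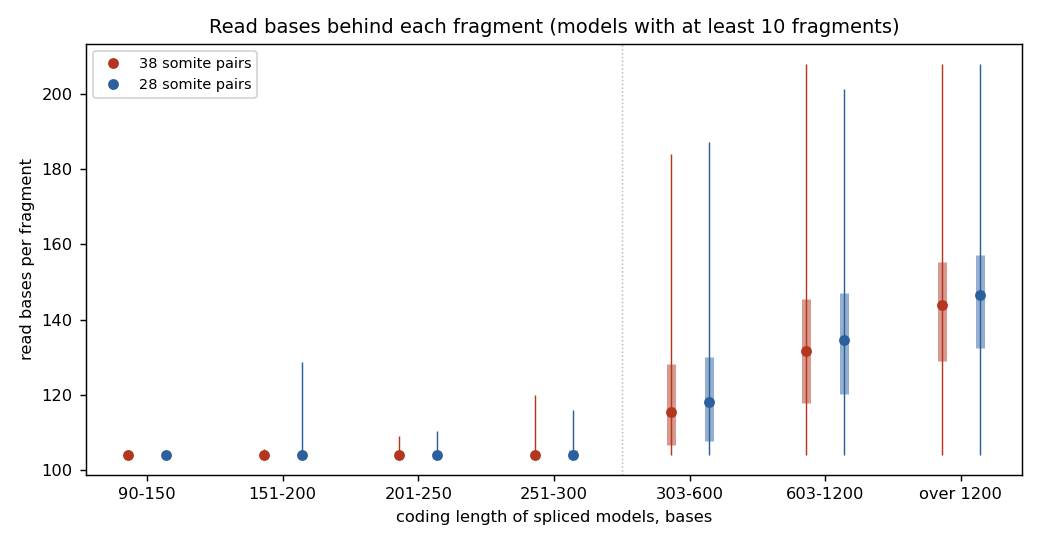
Read bases per fragment (vertical) of spliced models with at least 10 fragments, by coding length in bases, at 38 somite pairs (red) and 28 (blue). Points are medians, thick bars run between quartiles and thin lines from the lowest to the highest model. All 4 classes of small spliced models, left of the dotted line, have medians of 104.0, and models over 1200 bases have medians of 144.0 at 38 and 146.5 at 28.

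The small spliced models lay in a similar order of abundance at both stages. Across the 151 members above 0 in both libraries, Pearson's r of log2 fragments was 0.951 and Spearman's rho of fragments was 0.912. This r is across genes of 1 library per stage, which are not independent replicates, and the filter leaves out zeros. The same r over 8923 genes was 0.951. The median log2 ratio of FPKM, 38 over 28, was -0.03 over the 151 members, with quartiles at -0.45 and 0.34, and -0.19 over the 8923 genes, with quartiles at -0.57 and 0.22. By size class of spliced models it was -0.07 for 303 to 600 bases, -0.12 for 603 to 1200 and -0.26 for over 1200. The next size class thus lay close to the members, and the part of length in these medians was not tested. With log2(FPKM + 1), which understates differences of low genes, the median difference over the 196 members with an FPKM of at least 1 in a library was -0.07, with quartiles at -0.64 and 0.42, and 92 of the 196 were higher at 38 and 104 lower. Over 9455 genes it was -0.17, with quartiles at -0.55 and 0.24. The 196 members include 19 listed only at 38 and 26 listed only at 28, whose listed 0 entered as 0 FPKM. The 19 counted as higher at 38 and the 26 as lower. The split of 92 and 104 and the quartiles over the 196 therefore rest in part on listed zeros, which can hide fragments. The sign of the member median depends on the scaling. The 4582 genes that had 100 fragments or more at each stage had a median log2 ratio of -0.22, and with values at 38 multiplied by 1.17 to set that to 0 the median of the members was 0.15.

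At least 2-fold higher at 38 somite pairs were 7 of the 151 members (4.64%), where the background over 8923 genes was 6.33%. At least 2-fold higher at 28 were 13 (8.61%), where the background was 9.3%. Both shares are near the background, so they are no result about small models. After the same scaling by 1.17 the numbers turned round, to 13 higher at 38 (8.61%, background 9.47%) and 7 higher at 28 (4.64%, background 5.18%). The counting interval of the fragment ratio also lay apart from 1 in all 7 and all 13 as deposited, where the background of that stricter call was 5.87% towards 38 and 9.11% towards 28. The 2-fold calls as deposited were also counted by depth, with no share over all genes taken in the same classes. Among the 35 members with at least 200 fragments in a library, 1 was 2-fold higher at 38 and 1 at 28, and FPKM ratios ran from 0.496 to 2.34. Among the 57 with 50 to under 200 fragments, 4 were 2-fold higher at 38 and 7 at 28, with ratios from 0.178 to 4.45. Among the 59 with under 50 fragments, 2 were higher at 38 and 5 at 28, with ratios from 0.304 to 2.78. All 151 members were listed in both libraries, and very low listed values were rare. This limits the ratios that the class under 50 fragments can show. The counts by depth are therefore no result about small models, and the part of depth in them was not tested.

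Of the models higher at 38 somite pairs, 5 had at least 50 fragments in a library. They were picked by the ratio in these same counts, and a model could meet the limit of 50 in its higher library alone. Their counting intervals do not allow for this choice and are no test of the differences. The largest ratio was that of ENSACAG00000009690 on scaffold GL343196.1 (1301525 to 1302818), of 240 bases. It had 27.7 FPKM from 54 fragments at 38 and 6.22 FPKM from 13 fragments at 28, a fragment ratio of 4.46 (2.40 to 8.91). The best covered was ENSACAG00000008341 on GL343375.1 (712 to 4562), of 249 bases, with 152.9 FPKM from 282 fragments at 38 and 65.3 FPKM from 129 fragments at 28, a ratio of 2.35 (1.90 to 2.91). The other 3 had ratios from 2.06 to 2.47. A model of 219 bases on GL343193.1 (6920773 to 6928072) had 69 fragments at 38 and 30 at 28, a ratio of 2.47 (1.59 to 3.93). A model of 267 bases on chromosome 1 (196003792 to 196004737) had 62 at 38 and 29 at 28, a ratio of 2.30 (1.46 to 3.70). A model of 243 bases on chromosome 2 (124489105 to 124510291) had 123 at 38 and 64 at 28, a ratio of 2.06 (1.51 to 2.84).

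Towards 28 somite pairs there were 8 such models, of which 4 were no longer 2-fold higher after the scaling by 1.17. They were picked in the same way, so the same limit holds for their intervals. The largest difference was that of ENSACAG00000026579 on scaffold GL343579.1 (423622 to 424189), of 267 bases and with only 301 bases of intron sequence. It had 4.99 FPKM from 13 fragments at 38 and 28.0 FPKM from 79 fragments at 28, a fragment ratio of 0.177 (0.0901 to 0.320). Next was ENSACAG00000025279 on chromosome 1 (91499660 to 91500773), of 237 bases, with 26.9 FPKM from 55 fragments at 38 and 87.9 FPKM from 194 fragments at 28, a ratio of 0.304 (0.221 to 0.413). Those 2 were the only ones of the 8 that were more than 3-fold higher at 28. Those that lost the call included the best covered, a model of 285 bases on GL343947.1 (83804 to 85088), with 148 fragments at 38 and 318 at 28, a ratio of 0.4997 (0.408 to 0.609). A model of 270 bases on GL343228.1 (1178368 to 1180427) had 58 at 38 and 135 at 28, a ratio of 0.461 (0.333 to 0.632). A model of 201 bases on chromosome 2 (31445365 to 31452735) had 51 at 38 and 118 at 28, a ratio of 0.464 (0.327 to 0.650). Scaled ratios of FPKM of these 3 were 0.578, 0.543 and 0.540. The remaining 3, on chromosome 4 (99229473 to 99235162), GL343259.1 (487267 to 492989) and GL343198.1 (4343420 to 4344829), had 19 to 27 fragments at 38 and 50 to 68 at 28, with ratios of 0.426, 0.408 and 0.477. Their scaled ratios of FPKM were 0.498, 0.481 and 0.551, so the one on GL343198.1 also lost the call.

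**Figure D5:**
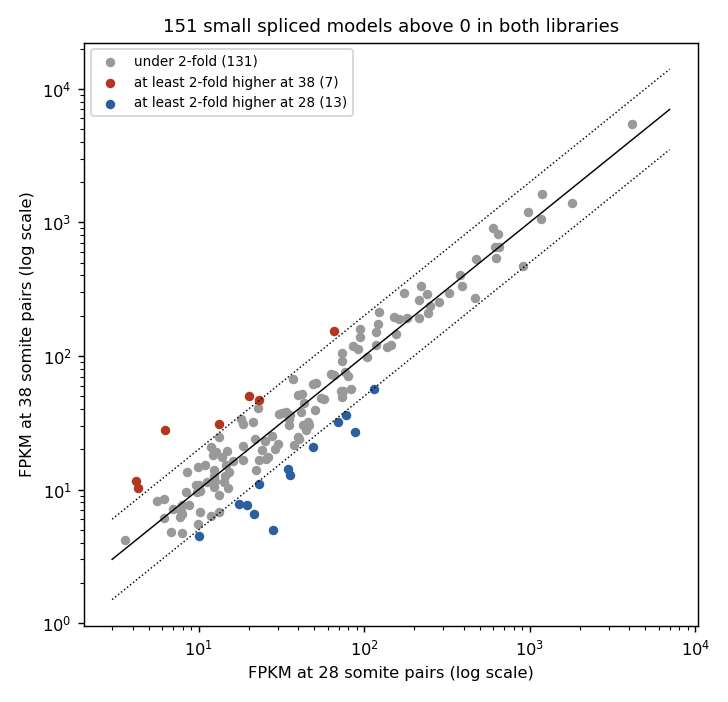
FPKM at 38 somite pairs (vertical, log scale) against FPKM at 28 (horizontal, log scale) of the 151 small spliced models above 0 in both libraries. The solid line marks equal values and the dotted lines 2-fold differences, past which lie 7 models towards 38 (red) and 13 towards 28 (blue).

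A 2-fold limit leaves out smaller differences that counting error does not cover. The counting interval lay above 1 towards 38 somite pairs in 31 of the 151 members (20.5%, background 17%) and towards 28 in 33 (21.9%, background 39.1%). After that scaling it did so in 46 members towards 38 (30.5%, background 28.4%) and 16 towards 28 (10.6%, background 26.1%). Members above 0 held a median of 45.5 fragments at 38 and 49 at 28, against 94 and 117 over all genes, and the part of depth in these shares was not tested. In all 170 members above 0 at 38 and all 177 at 28, the deposited bounds lay 2 square roots of the FPKM to either side of it, with a lower bound that would be negative set to 0 (1 member at 38 and 3 at 28). They carry no fragment number. By these bounds 28 of the 151 members were apart between stages, and 27 of those were also apart by counting, the exception being the model of 108 bases on chromosome 2. Another 37 members were apart by counting while the deposited bounds overlapped, 16 of them higher at 38 and 21 at 28. No share over all genes was taken for the deposited bounds, so these counts are no result about small models.

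A few members were listed at one stage with at least 30 fragments and at 0 at the other. On GL343297.1 (184356 to 187323), a model of 159 bases had 88.3 FPKM from 56 fragments at 38 somite pairs and was listed at 0 at 28. A model of 246 bases on chromosome 6 (35086952 to 35090896) had 31 fragments at 38 and was listed at 0 at 28. In the other direction, models on AAWZ02041590 (3182 to 4500, 234 bases), chromosome 1 (70487817 to 70494027, 285 bases) and AAWZ02041356 (3062 to 5431, 258 bases) were listed at 0 at 38 and had 50, 37 and 30 fragments at 28. Only the model on chromosome 1 had an unadjusted effective length in the library where it was at 0. No fold is given for these 5, since a listed 0 can hide up to 9 fragments. With the limit of 30 fragments no share over all genes was taken, so their number is no result about small models.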

How the data were processed

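RNA was taken from 1 whole embryo per stage. Extraction used the mirVana kit and library preparation the NuGEN Ovation kit, per the labels' protocols. TopHat aligned the reads, without trimming, to AnoCar2.0, as the series' design text states. The submitters' processing notes also name Cufflinks, and no version of either tool was found. The deposited values are FPKM per gene and transcript, and per the file headers the transcript tables add each transcript's fraction of its locus, which was not used, and its coverage signal.

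Fragments were computed as FPKM times effective length times a step per library, its mapped fragments on the scale of FPKM, found as the step at which the products were whole. Within a tolerance of 0.02 fragments, 92.6% of 5065 genes under 100 fragments were whole at 38 somite pairs and 93.2% of 4566 at 28. Of the members above 0, 3 of 170 at 38 and 9 of 177 at 28 were not whole. The step assumes FPKM scaled to all mapped fragments. Fragment ratios are per mapped fragment, with exact (Clopper-Pearson) 95% intervals given the sum; shares have Wilson intervals. In 1 member, at 0 in both libraries, the contig name differed between the libraries.

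Models named were the 12 with the most fragments, up to 8 each way at 2-fold or more with at least 10 fragments in both libraries and 50 in one, those at 0 in one library with at least 30 in the other, and those at the ends of the length range above 0 in both. Gene lists by symbol could not be applied. The models and lists were chosen with earlier results of these data known. The steps were tested on simulated data. No sequence is shown, since no genome was used here. Intervals came from scipy 1.17.1 and tables from pandas 2.3.3 with numpy 2.4.6, in Python 3.11.15, and plots from matplotlib 3.10.9.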

Additional observations from a re-analysis of the deposited data

How the results depend on the processing

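No paired analysis was possible because there was 1 library per stage, and for the same reason no replicate could be left out. Of 49 alternative values, 25 stayed within 1.5 times a reported count or sum, or within the order-statistic interval of the reported median. That interval, -0.16 to 0.037, treats the members as independent draws. It covers neither counting error nor differences between embryos. Some alternatives, such as any remainder of length or linkage groups included, add few models and could move little. The number that stayed is therefore no measure of support. With lengths of 90 to 240 bases, fewer models enter: 77 members were above 0 at 38 somite pairs (11150 fragments) and 76 at 28 (11385.5 fragments), and 2 were 2-fold higher at 38 and 7 at 28. With 90 to 360 bases, 302 were above 0 at 38 and 310 at 28, from 76917 and 82527.5 fragments, and 16 were 2-fold higher at 38 and 20 at 28. The median log2 difference, -0.07 as reported, was 0.051 among members that held 50 or more fragments at each stage (the cause was not tested), 0.15 with values at 38 scaled to the median of well-covered genes and 0.072 with equal sums of FPKM. Scaling to the median gave 13 members 2-fold higher at 38 and 7 at 28, and equal sums of FPKM gave 9 at 38 and 9 at 28. At 1.5-fold, 20 were higher at 38 and 26 at 28, and at 3-fold 1 and 3. With models at 0 set against 9 fragments, 15 were higher at 38 and 21 at 28. With at least 50 fragments in a library, 5 were higher at 38 and 8 at 28. Apart from the scaling to the median, no share over all genes was taken at these settings. The counts of 2-fold and other calls here are therefore no result about small models. Values above 0 with under 10 fragments were rare, so lower levels may be listed as 0.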

Other observations

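Some short models fell outside the rule. On the linkage groups, 9 spliced models met the rule on length, 3 of them were above 0 at 38 somite pairs and 3 at 28, and their fragments summed to 216 at 38 and 216 at 28. Of the 6 spliced models of 90 to 300 bases with a length not divisible by 3, 0 were above 0 at 38 and 1 at 28, from 19 fragments. Of 705 single-exon models of 90 to 300 bases with a length divisible by 3, 45 were above 0 at 38 (6.38%, Wilson 95% interval 4.804 to 8.43) and 55 at 28 (7.80%, 6.04 to 10.02), with 4063 and 4409 fragments in all.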
